A study of Mus musculus with 9 samples.

Results

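The CpGs described here lie on the scaffolds of the mouse assembly that stand outside the numbered chromosomes, X, Y and the mitochondrial genome. Every listed cytosine whose chromosome name was none of those was taken, and calls and methylated calls were summed by scaffold and library. They made up 11290 of the 19042376 CpGs listed in any library and lay on 37 scaffolds, 35 of which had at least 5 CpGs listed in each library. Whole-genome bisulfite sequencing had been applied to DNA from nucleus accumbens punches of male C57BL/6J mice aged 8 weeks. The 9 libraries were labelled Control (5, numbered 2, 3, 4, 5 and 8) or Susceptible (4, numbered 2, 3, 6 and 7) by phenotype. The same protocol of 10 daily social defeats by aggressive CD1 males is attached to every library, so the labels do not say what set the Control mice apart before they were classed. No label gives the source of each punch beyond the library, and p-values set a difference against the spread between these libraries only.

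A scaffold is a stretch of assembled sequence that could not be fitted into a chromosome, often because near-identical copies of it exist elsewhere in the genome. Some mouse scaffolds are tied to a chromosome without a position in it, and others are tied to none. In such sequence a read can come from a copy that the assembly lacks or holds elsewhere, so calls at 1 listed cytosine may come from several loci. Most CpGs of mammalian DNA are methylated in brain tissue, while CpG-dense stretches at gene starts are usually free of methylation. Bisulfite leaves methylated and hydroxymethylated cytosines unconverted alike, and the level of a region below is the share of its calls read as C. In tissue punches, a change in the mix of cells and a change within cells cannot be told apart.

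Scaffold CpGs took 0.0424 to 0.0531% of the listed cytosines of a library and 0.145 to 0.161% of its calls, from 494453 calls in Control 5 to 842530 in Susceptible 2. All listed cytosines have at least 10 calls, so cytosines covered by fewer reads add nothing to these totals. Of the scaffold CpGs, 25.2% were listed in all 9 libraries, against 31.6% of autosomal CpGs. Control 5 and Control 8 stood apart from the other libraries. Among autosomal CpGs listed on both strands, the strands differed by over 50 points at 13.5% in Control 5 and 13.7% in Control 8, and at 0.66 to 4.94% in the others. On scaffolds these shares were 9.32% and 10.9%, against 0.789 to 4.63%. Values without both libraries are given for some results, though not for each one that they move.

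JH584304.1, a scaffold assigned to no chromosome, held 66.3 to 72.2% of all scaffold calls on 13.1 to 17.2% of the scaffold cytosines. Its mean number of calls per listed cytosine was 340, 346, 340, 274 and 339 in Control libraries 2, 3, 4, 5 and 8. In the Susceptible libraries it was 459, 380, 392 and 358 in the order 2, 3, 6 and 7. Autosomal cytosines averaged 20.2 to 26.8 calls. Every library thus had far more calls per cytosine on JH584304.1 than on the autosomes, with no overlap.

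Over all scaffolds, mean calls per listed cytosine were 3.35 ± 0.269 times the autosomal mean (SD, n = 9), with a log2 ratio of 1.74 ± 0.119 (higher in 9 of 9 libraries, exact sign-flip permutation test, two-sided p = 0.00391, the smallest this test can give). Without JH584304.1 the ratio was 1.19 ± 0.0342, again higher in 9 of 9 libraries with the same exact permutation p of 0.00391. Medians were much closer, at 19 to 25 calls on scaffolds and 17 to 22 on autosomes, a log2 ratio of 0.15 that was positive in 9 of 9 libraries (exact permutation p = 0.00391). Without JH584304.1 the scaffold median was 17 to 22 calls, and in the 4 Susceptible libraries it was below the autosomal one. Of the scaffold cytosines, 10.6 to 14.9% had more calls than all but 0.1% of the autosomal cytosines in their own library, and these held 65.3 to 75.4% of scaffold calls.

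GL456350.1, tied to chromosome 4, had still more calls per cytosine than JH584304.1 on average, 405 over 9 libraries with a range of 192 to 540. Those calls came from 8 listed CpGs, 5 of which were listed in all 9 libraries and held 98.6% of its Control calls and 98.0% of its Susceptible calls. GL456354.1, tied to chromosome 5, was next with 62.5 calls per cytosine. The fewest calls per cytosine were on GL456379.1 with 15.4, GL456381.1 with 16.6 and GL456394.1 with 16.8, all below the autosomal range.

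**Figure D1:**
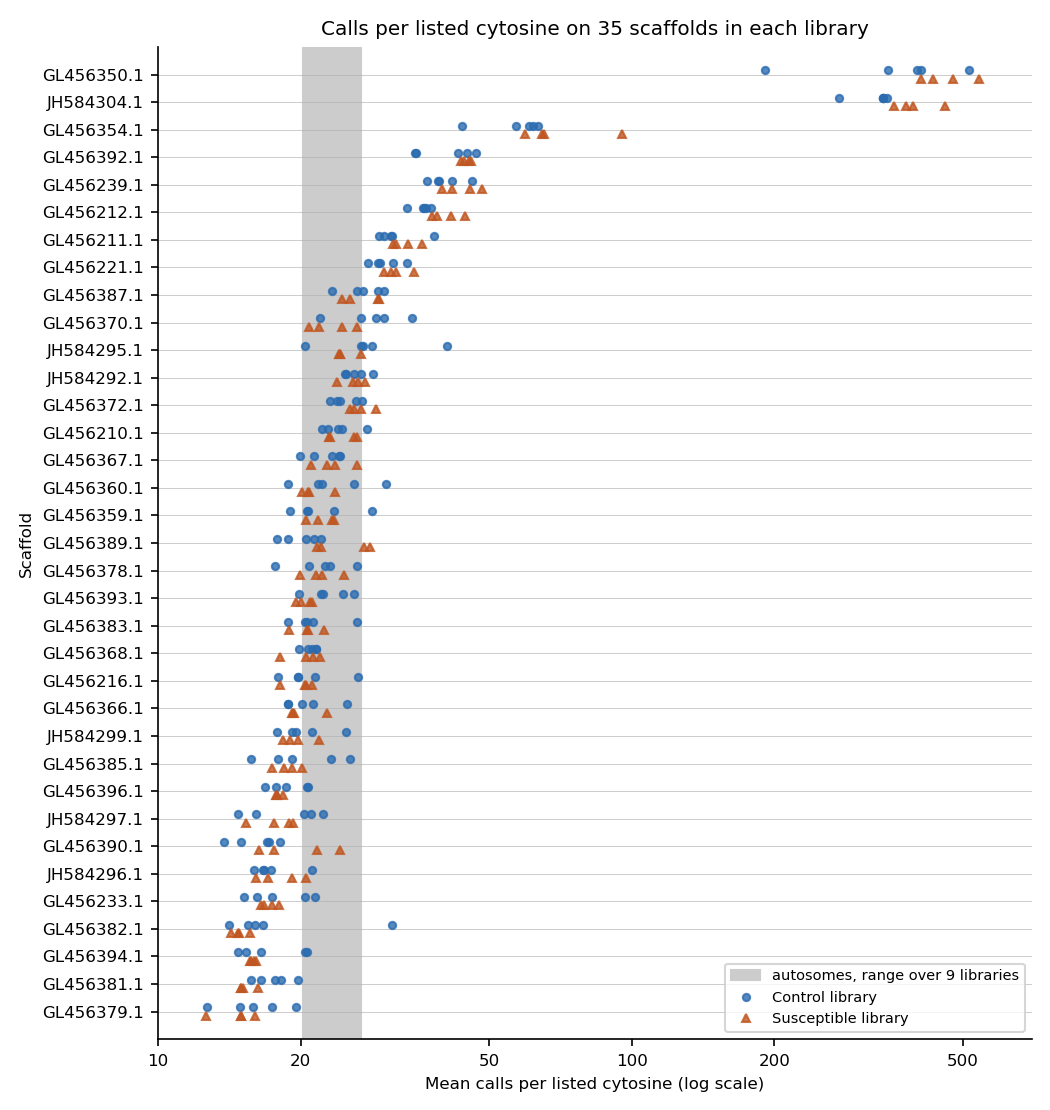
Mean calls per listed cytosine (x axis, log scale) of the 35 scaffolds with at least 5 CpGs in each library (y axis, ordered by their mean), 1 point per library, with Control as circles and Susceptible as triangles. The grey band is the range of the autosomal mean over the 9 libraries, 20.2 to 26.8 calls, and GL456350.1 and JH584304.1 lie far to its right.

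The summed methylation level of scaffold CpGs was 74.8, 74.7, 74.6, 75.1 and 75.9% in Control libraries 2, 3, 4, 5 and 8. In Susceptible libraries 2, 3, 6 and 7 it was 75.0, 74.2, 75.1 and 74.4%, inside the Control range but for the lowest 2. In each library scaffolds read lower than autosomes, by 0.126 to 2.19 points, and the mean gap was -1.28 ± 0.705 points (SD, n = 9, exact sign-flip permutation test, p = 0.00391). Without JH584304.1 the gap was 0.17 ± 0.465 points and positive in 6 of 9 libraries (exact permutation p = 0.301). JH584304.1 itself read 74.2% ± 0.518 (n = 9) against 76.2% ± 0.76 on autosomes and was the lower of both in 9 of 9 libraries (adjusted p = 0.0057, exact sign-flip permutation test with Benjamini-Hochberg adjustment over 35 scaffolds). At CpGs listed in all 9 libraries the gap of all scaffolds together was -0.0281 points (exact permutation p = 0.906).

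Behind that average the scaffolds ranged from 30.2 to 93.6% in mean level. Within libraries 32 of 35 differed from autosomes at an adjusted p under 0.05, 22 above and 10 below (the same exact test). The 3 that did not pass were GL456212.1, GL456383.1 and JH584295.1. The 19 autosomes were closer together, with Control means of 71.5 to 78.5%. Single autosomes were not tested in this way, so no background share stands beside the 32 of 35, and that count cannot be read as particular to scaffolds. Autosomes can stand apart too. Chromosome 17 read 70.1 to 72.6% over the libraries and chromosome 11 read 71.4 to 74.0%, below the range of all autosomes, 74.5 to 77.1%. Chromosome 14, at 76.8 to 79.0%, was above the summed autosomes in each library.

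GL456378.1, assigned to no chromosome, had the lowest level. It read 27.2, 29.3, 34.2, 32.3 and 28.7% in the Control libraries and 32.8, 31.0, 32.4 and 23.6% in the Susceptible libraries, each in numerical order. GL456359.1 followed with 53.2% ± 2.54 and GL456216.1, tied to chromosome 4, with 57.9% ± 2.26 (SD, n = 9). All 3 were below the autosomes in every library, by 46.0, 23.0 and 18.2 points on average.

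At the other end, GL456370.1 read 93.6% ± 2.37, GL456360.1 90.1% ± 1.06 and GL456354.1 88.9% ± 1.04 (SD, n = 9), above the autosomes in 9 of 9 libraries each. Among the scaffolds with the most calls after JH584304.1, 4 are tied to chromosome 1: GL456211.1 read 79.4%, GL456221.1 78.6%, GL456210.1 80.9% and GL456212.1 75.9%. GL456239.1, tied to no chromosome, read 71.2% and JH584299.1, tied to chromosome 5, read 79.1%.

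**Figure D2:**
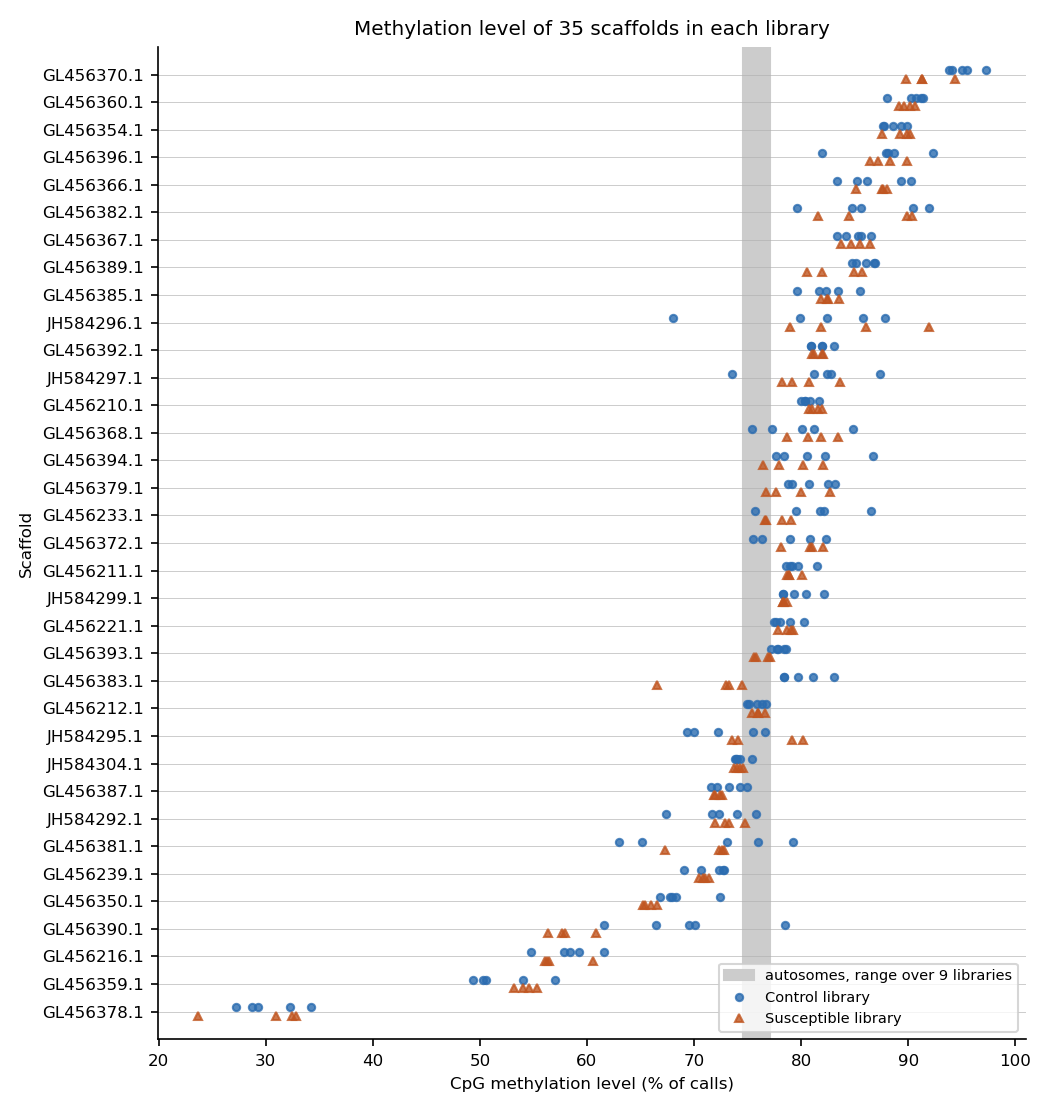
Methylation level (x axis, percent of calls read as C) of 35 scaffolds (y axis, ordered by mean level) in each library, with Control as circles and Susceptible as triangles. The grey band marks the autosomal range over 9 libraries, 74.5 to 77.1%, and scaffold means run from 30.2 to 93.6%.

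Scaffolds tied to a chromosome were set against that chromosome in the same library, with 4 such comparisons adjusted together. The 4 scaffolds tied to chromosome 1 summed to 78.7% ± 0.395, 0.722 points above chromosome 1 and higher in 7 of 9 libraries (adjusted p = 0.0208, exact sign-flip permutation test). Those of chromosome 4 summed to 61.8% ± 1.37, 14.3 points below it in 9 of 9 libraries, and those of chromosome 5 to 83.0% ± 1.25, 6.88 points above it in 9 of 9 (each exact permutation adjusted p = 0.00781). GL456216.1 held 64.7 to 78.5% of the calls of the chromosome 4 scaffolds, and the other 3 summed to 70.8% ± 1.14, a gap of -5.41 points to chromosome 4, and lower in 9 of 9 libraries. GL456233.1, the scaffold tied to X, read 79.6% ± 3.44 against 77.7% on X, a gap of 1.91 points that was positive in 7 of 9 libraries and missed the threshold (exact permutation adjusted p = 0.0977). The 2 scaffolds tied to Y had 1 and 2 listed CpGs, and no level is given for them.

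Stretches low in methylation were few. Among 442 scaffold tiles of 1000 bp (3 or more CpGs and 20 or more calls per library), 6 had a mean level of 20% or less, or 1.36%, beside 2.91% of autosomal tiles. On GL456216.1 4 of the 6 lay between positions 13001 and 18000 of the scaffold, and the tile from 16001 held at least 114 CpGs in each library at a mean of 0.856% ± 0.381 (SD, n = 9). That tile read from 0.105% in Control 5 to 1.41% in Control 2. Another CpG-dense tile of the same scaffold, from 34001, held at least 53 CpGs at 96.9%. A dense cluster of CpGs was therefore unmethylated at one place on GL456216.1 and methylated at another.

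GL456378.1 had a comparable tile from 27001, with at least 51 CpGs and 1500 to 3870 calls per library. It read 3.15, 1.53, 2.38, 2.13 and 2.35% in Control and 2.64, 2.67, 2.24 and 3.14% in Susceptible libraries, with groups that overlapped. It held 53.4% of the scaffold's calls on average, and outside it GL456378.1 read 62.0% ± 4.94 (SD, n = 9). The low stretch of GL456216.1 held 36.4% of its calls, and the rest of that scaffold read 90.3% ± 1.06.

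The last low tile was on GL456233.1, from 39001, beside the higher-numbered edge of Vamp7. Vamp7 encodes a membrane protein of vesicle fusion. It is known to lie on this scaffold, together with Spry3, which encodes an inhibitor of receptor tyrosine kinase signalling, and Tmlhe, which encodes the first enzyme of carnitine synthesis. The gene table used gives bounds without strand, so which edge is the start of transcription is not stated here.

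Within 1000 bp of the Vamp7 edge at 39191, the level was 0.651, 3.23, 0, 15.0 and 0% in Control and 1.52, 0.592, 6.13 and 0% in Susceptible libraries, on 60 to 460 calls each. At its other edge, at 10737, the level was 96.8 to 100% in all 9 libraries, on 10 to 104 calls. The Spry3 edge at 110912 read from 0 to 29.4% with a median of 2.08% on 34 to 384 calls, while the edge at 101352 was listed in 2 libraries, at 100% in Control 5 and 58.3% in Susceptible 6 on 55 calls in all.

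Tmlhe read lower at 159605, from 0 to 47.9% with a median of 9.3%, than at 334431, from 73.1 to 98.97%. Control 5 with 45.9% and Control 8 with 47.9% were the highest libraries at the low edge, Control 2 read 18.4%, Control 3 0.893% and Control 4 0%, and the Susceptible libraries lay between 6.9 and 11.3%. Susceptible minus Control was -13.9 points at this edge, and 2.26 points without Control 5 and Control 8. Control 5 also gave the highest value at the Vamp7 edge at 39191, where the difference of -1.72 points became 0.768 without both libraries. It is 1 of the 2 libraries that stand apart. None of the 7 gene edges listed in all 9 libraries passed the test between the groups (each adjusted p = 0.921, exact permutation test with adjustment over the 7, 0 with an unadjusted p under 0.05).

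**Figure D3:**
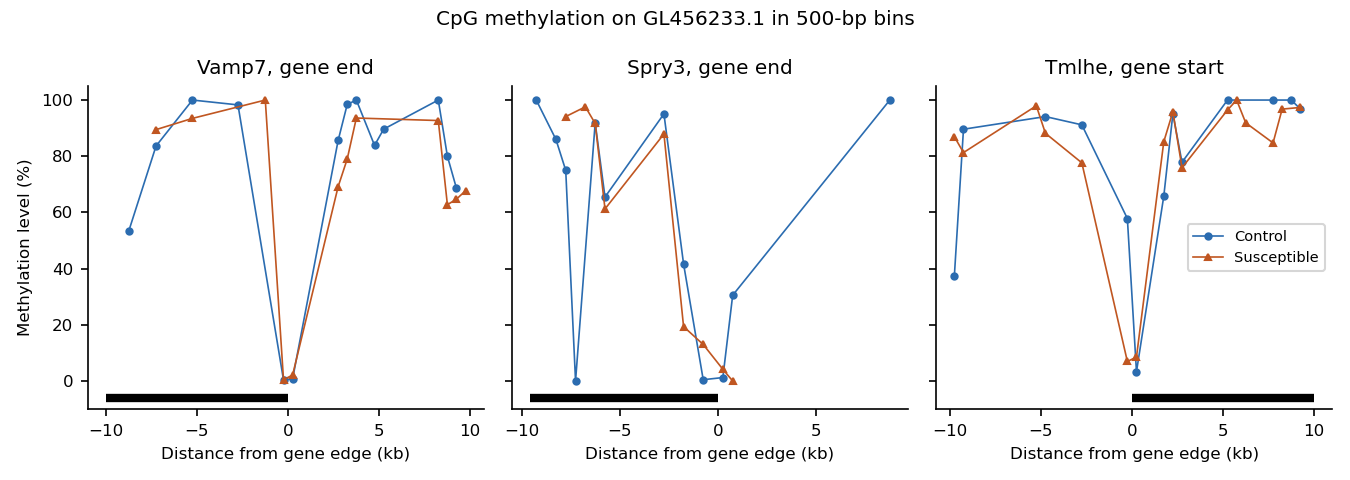
Methylation level (y axis, percent) in 500-bp bins against the distance from 1 edge of Vamp7, Spry3 and Tmlhe (x axis, kb, in scaffold direction), with calls pooled over the 5 Control libraries (circles) and the 4 Susceptible libraries (triangles), bins with under 30 calls left out and the gene drawn as a black bar. In both groups the level falls to near 0 at the edge of Vamp7 and Spry3 and stays above 50% in most bins farther out, while the bin just outside Tmlhe is higher in the pooled Control calls, where Control 5 and Control 8 had the highest levels of the 5 libraries within 1000 bp.

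JH584304.1 also carries a named gene, Pisd-ps3, a transcribed pseudogene related to the enzyme that makes phosphatidylethanolamine in mitochondria. Within 1000 bp of its edge at 59689 the level was 35.5, 41.5, 36.2, 30.3 and 43.1% in Control libraries and 36.8, 36.0, 36.0 and 38.8% in Susceptible libraries, on 31820 to 61839 calls each. The Susceptible values lay inside the Control range. At the edge at 52674 the level was 85.3 to 86.4% in all 9 libraries.

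In contrast to the near-0 levels at the 2 dense tiles above, none of the 71 tiles of JH584304.1 that met the minimum of CpGs and calls read 20% or less. Counted instead in 1000-bp bins from the Pisd-ps3 edge, 1 bin with 3 CpGs read 19.5% in the pooled Control calls and 19.4% in the pooled Susceptible calls. The tiles ran from 30.8 to 91.5%, and 63.4% of them lay between 20 and 80%, against 43.9% of the other scaffold tiles and 21.2% of autosomal tiles. The tile with the most calls, from 34001, averaged 60691 calls and read 91.5% ± 0.326 (SD, n = 9). The next, from 59001 at the low edge of Pisd-ps3, averaged 37336 calls and read 36.4% ± 4.11. Levels along this scaffold were closely repeated between libraries, with a median SD of 1.66 points per tile, beside 5.17 points for autosomal tiles, which had a median of 250 calls against 4110 here.

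**Figure D4:**
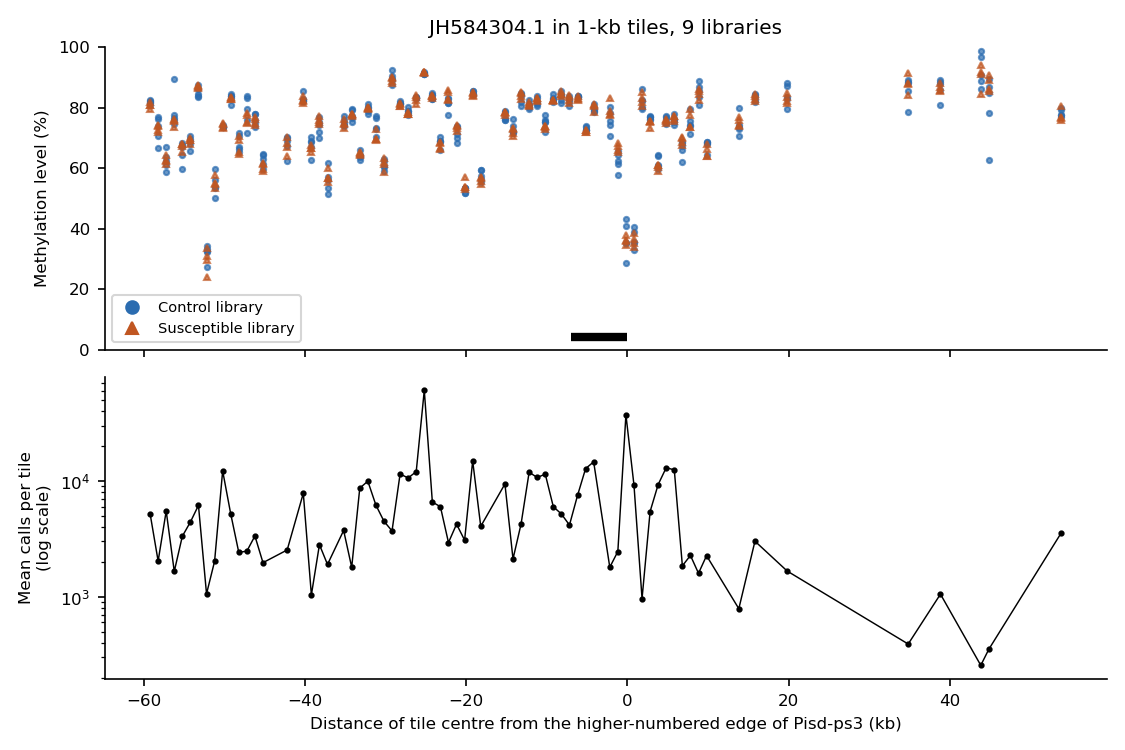
JH584304.1 in 1-kb tiles, by distance of the tile centre from the higher-numbered edge of Pisd-ps3 (x axis, kb), with the level in each of 9 libraries (upper panel, percent; circles Control, triangles Susceptible; the black bar is Pisd-ps3) and the mean calls per tile (lower panel, log scale). The libraries of both groups follow the same profile, which falls to about 36.4% at the gene edge and reaches 91.5% in the tile with the most calls.

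Single CpGs showed the same shift toward middle levels. On scaffolds 19.6 to 33.4% of CpGs in a library read between 20 and 80%, against 14.7 to 25.5% on autosomes, a mean gap of 8.35 ± 2.64 points. CpGs at 20% or less were fewer by 2.91 ± 0.701 points and those at 80% or more by 5.45 ± 2.07 points (each in 9 of 9 libraries, exact sign-flip permutation p = 0.00391). The low class held 10.03% ± 3.16 of scaffold CpGs in Control (SD, n = 5), against 7.34% ± 0.285 in Susceptible libraries (SD, n = 4). The middle class held 27.0% ± 6.46 and 32.5% ± 1.02. Control 5 and Control 8 had the 2 highest shares of the low class and the 2 lowest of the middle class. Without them the low class held 7.12 to 8.28% in Control and 6.97 to 7.59% in Susceptible libraries, and the middle class 31.1 to 32.6% and 31.4 to 33.4%. No class passed the test between groups (each adjusted p = 0.183, exact permutation test over 3 classes).

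Forward-strand cytosines of scaffolds read 1.25 ± 0.557 points above reverse-strand ones, in 9 of 9 libraries (exact permutation p = 0.00391), against 0.152 ± 0.0268 on autosomes. At CpGs listed on both strands, the scaffold gap was -0.351 ± 0.437 points (positive in 2 of 9, exact permutation p = 0.0313) and the autosomal one -0.0015 ± 0.0118. The first gap weights CpGs by their calls and the second weights them equally, and they also differ in the CpGs covered. Without JH584304.1 the first scaffold gap was 1.15 points (positive in 8 of 9, exact permutation p = 0.0625). The second was then -0.317 points (positive in 5 of 9, exact permutation p = 0.305). On JH584304.1 the forward strand read 1.43 points above the reverse strand by summed calls, in 9 of 9 libraries. On GL456387.1 the forward strand read 69.1% ± 1.51 over 107 CpGs and the reverse strand 86.2% ± 2.35 over 58 CpGs (SD, n = 9). At its 11 to 34 CpGs per library listed on both strands, the gap was -6.15 points on average and negative in every library, from -16.0 to -0.179. On GL456389.1 the forward strand was 15.8 points higher by summed calls, but the gap was -8.99 points at its 2 to 11 CpGs listed on both strands. On GL456396.1 these values were -6.01 and -0.626 points.

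Between the Susceptible and Control phenotypes, the design compares methylation in this brain region. Summed scaffold level was 75.0% ± 0.533 in Control (SD, n = 5) and 74.7% ± 0.44 in Susceptible libraries (SD, n = 4). They differed by -0.34 points (exact permutation test over 126 groupings, two-sided p = 0.357). Autosomes differed by -0.597 points (exact permutation p = 0.278). The scaffold difference was thus less negative than the autosomal one, by 0.257 points (exact permutation p = 0.595). This direction reversed in 3 of 17 alternatives, with -0.118 points without JH584304.1. JH584304.1 read 74.3, 73.8, 73.9, 74.0 and 75.4% in Control and 74.3, 73.7, 74.5 and 74.0% in Susceptible libraries, which gave -0.132 points with overlapping groups (adjusted p = 1, exact permutation test). Without Control 5 and Control 8 the difference of summed scaffold levels was -0.0168 points (exact permutation p = 0.943). The scaffold difference was then less negative than the autosomal one by 0.451 points (exact permutation p = 0.486), and the gap of scaffolds to autosomes within libraries was -1.33 points.

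Of the 35 scaffolds, 0 passed an adjusted p of 0.05 (exact permutation test with Benjamini-Hochberg adjustment, smallest adjusted p = 0.139) and 5 had an unadjusted p under 0.05. With 5 against 4 libraries the smallest p is 0.00794, and 6 scaffolds at that value would be needed for any to pass. Differences were negative on 20 scaffolds and positive on 15. At CpGs listed in all 9 libraries they were negative on 17 and positive on 18, and without cytosines of very high coverage on 16 and 19. On 4 scaffolds every Susceptible library was below every Control library, and on 0 above. Of the 19 autosomes 0 were separated in that way and 0 had an unadjusted p under 0.05 in the same exact permutation test. All 19 differences were negative, though, from -0.804 to -0.412 points. Without Control 5 and Control 8, 2 scaffolds had an unadjusted p under 0.05.

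GL456383.1, tied to no chromosome, had the smallest p. It read 78.4, 81.1, 78.4, 79.7 and 83.1% in Control and 74.5, 66.6, 72.9 and 73.2% in Susceptible libraries, on 1349 to 2208 calls. All Susceptible values were below all Control values, and the difference was -8.31 points (exact permutation p = 0.00794, or 0.139 after adjustment). With each CpG weighted equally the difference was -3.13 points (exact permutation p = 0.31), and with cytosines of at least 20 calls it was -13.8 points. At the 17 CpGs listed in all libraries the summed levels differed by -11.3 points (exact permutation p = 0.0159), while the mean difference per CpG was 0.117 points, with 7 CpGs lower and 10 higher. One of them, at position 35400, read 0 to 1.06% everywhere and took 2.71% ± 1.46 of the scaffold's calls in Control and 7.02% ± 2.05 in Susceptible libraries. That CpG was chosen after its values were seen, and without it the scaffold's difference was -5.14 points (exact permutation p = 0.0317).

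GL456390.1 read 66.5, 70.1, 61.6, 78.4 and 69.5% in Control and 57.96, 57.7, 56.3 and 60.9% in Susceptible libraries. The groups did not overlap. The difference was -11.0 points (exact permutation p = 0.0159, or 0.139 after adjustment), and equal weighting gave -10.8 points (exact permutation p = 0.00794). Its forward strand read 61.2% over 67 CpGs and its reverse strand 81.4% over 9 CpGs, with 0 CpGs listed on both. Both strands were listed in 8 of 9 libraries, and the part of this in the difference was not tested. This scaffold had 254 to 716 calls per library, and 2 of its 76 CpGs were listed in all 9 libraries. At those 2 CpGs, which held 12.6% of its Control calls and 13.2% of its Susceptible calls, the summed levels differed by 15.0 points (exact permutation p = 0.175) and the mean difference per CpG was 3.81 points.

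On GL456350.1, with its 8 CpGs, the level was 67.7, 68.0, 66.8, 72.4 and 68.3% in Control and 66.0, 66.5, 65.2 and 65.4% in Susceptible libraries. The groups did not overlap, and the gap was -2.86 points (exact permutation p = 0.0159, or 0.139 after adjustment), with -0.0353 points under equal weighting of CpGs and 1.11 points, the opposite sign, without cytosines of very high coverage. GL456393.1 read 77.2 to 78.6% in Control and 75.6 to 77.1% in Susceptible libraries, which gave -1.61 points without overlap (the same exact permutation p and adjusted p), and -0.954 points under equal weighting. GL456370.1, the most methylated scaffold, read 93.8 to 97.3% in Control and 89.8 to 94.4% in Susceptible libraries, which overlapped, with -3.43 points between the means (exact permutation p = 0.0317, or 0.222 after adjustment).

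**Figure D5:**
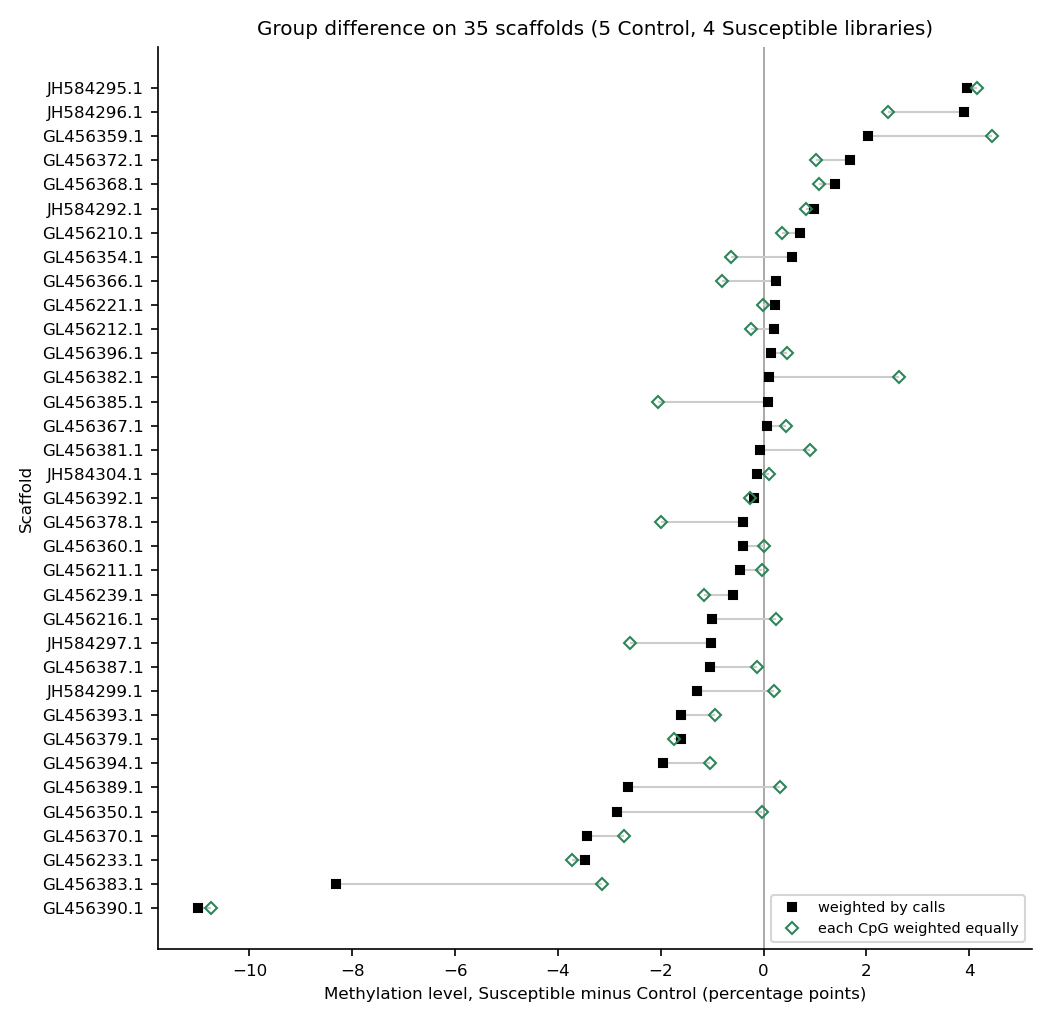
Difference in methylation level, Susceptible minus Control in percentage points (x axis), on each of 35 scaffolds (y axis), with CpGs weighted by their calls (squares) and equally (open diamonds). GL456390.1 is at -11.0 and -10.8 points by the 2 weightings, GL456383.1 at -8.31 and -3.13, and GL456350.1 at -2.86 and -0.0353.

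Calls on scaffolds were also compared, per 1000 autosomal calls of the same library. They came to 1.59 ± 0.0368 in Control (SD, n = 5) and 1.53 ± 0.0526 in Susceptible libraries (SD, n = 4, exact permutation p = 0.0873). Calls on JH584304.1 were 1.1 and 1.08 per 1000 (exact permutation p = 0.595). The other scaffolds together had 0.495 ± 0.0274 and 0.453 ± 0.0133 per 1000 (exact permutation p = 0.0317). At CpGs listed in all 9 libraries the values were 2.54 and 2.58 per 1000 (exact permutation p = 0.683). All listed calls came to 313475558 to 430311977 in Control and 432409939 to 570984634 in Susceptible libraries, without overlap, and the part of depth and of the minimum of 10 calls in these ratios was not tested.

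By scaffold, calls per 1000000 autosomal calls were lower in the Susceptible mean on 30 of 35, and 0 passed an adjusted p of 0.05 (exact permutation test, smallest adjusted p = 0.231), with 6 at an unadjusted p under 0.05. At CpGs listed in all 9 libraries 20 were lower and 15 higher, and 3 had an unadjusted p under 0.05. Calls on chromosomes were not tested in this way, so no background share stands beside the 6 or the 3. GL456393.1 had the smallest p, with 12.1 such calls in Control and 9.77 in Susceptible libraries, which did not overlap (exact permutation p = 0.00794, adjusted p = 0.231). GL456370.1 had 14.6 and 8.55 (exact permutation p = 0.0397) and GL456383.1 5.09 and 3.46 (exact permutation p = 0.0238). The other 3 were GL456385.1, with 4.75 and 4.01 and no overlap (exact permutation p = 0.0159), GL456382.1 and GL456387.1, and their levels differed by 0.0788, 0.114 and -1.05 points. At CpGs listed in all 9 libraries the exact permutation p for calls was 0.206 on GL456383.1, 0.127 on GL456385.1 and 0.365 on GL456382.1. GL456350.1 and GL456390.1, described above for their levels, had more such calls in the Susceptible mean (6.46 and 6.8, and 0.923 and 1.03).

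Tiles were tested in 1 model over the genome, and scaffolds contributed 442 of 1042691. Of the scaffold tiles 0 passed an adjusted p of 0.05, as did 0 of all tiles (0%, quasi-binomial model with dispersion moderated by limma's formulas). At an unadjusted p under 0.05 stood 15 scaffold tiles, or 3.39%, beside 4.38% of all tiles. In 8 scaffold tiles every Susceptible library was below every Control library, or 1.81%, beside 0.96% of all tiles, and in 1 tile every one was above, or 0.226%, beside 0.598%. Of the 71 tiles on JH584304.1, 6 had an unadjusted p under 0.05, or 8.45%, above the 4.38% of all tiles. On the other scaffolds 9 of 371 did, or 2.43%. These shares were not tested against each other.

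The smallest p on scaffolds was in JH584295.1, tied to chromosome 4, in the tile from 1001 to 2000 with at least 25 CpGs. It read 56.3, 57.1, 63.5, 54.0 and 38.4% in Control and 63.6, 69.4, 64.3 and 64.2% in Susceptible libraries. The difference was 11.5 points without overlap (unadjusted p = 0.00268, adjusted p = 0.997, quasi-binomial model with limma moderation), and Control 8 was the lowest library. Without Control 8 it was 7.61 points. Next came JH584304.1 from 28001 with -3.7 points, GL456210.1 from 10001 with -19.8 points, GL456221.1 from 163001 with 9.2 points and GL456221.1 from 88001 with -12.8 points. The adjusted p was 0.997 for all 4, and of them the last was without overlap between groups, at 69.6, 71.4, 68.6, 86.8 and 75.4% in Control and 60.5, 61.1, 63.0 and 61.6% in Susceptible libraries. Without Control 5 and Control 8 the difference was 6.35 points in the JH584295.1 tile, -1.84 points in that of JH584304.1, 13.2 points in that of GL456221.1 from 163001 and -8.34 points in the last. The difference in GL456221.1 from 163001 was 15.2 points without Control 5 alone and 5.64 points without Control 4.

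Among the 2850 scaffold CpGs listed in all 9 libraries, 30 had all 4 Susceptible levels below all 5 Control levels, or 1.05%, beside 1.41% over the whole genome. Another 6 had them all above, or 0.211%, beside 0.314%. Of these 36, 8 lay on GL456210.1 among 214 such CpGs, 8 on GL456211.1 among 400 and 6 on JH584304.1 among 671. On GL456210.1 6 were below and 2 above, both over the shares of the genome. On GL456211.1 8 were below, over that share, and 0 above. On JH584304.1 the shares were 0.745% below and 0.149% above, both under those of the genome. No test of these shares against those of the genome was made.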

How the data were processed

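DNA of 9 nucleus accumbens samples went into Pico Methyl-seq libraries (Zymo), per the labels' protocols. Bismark, Bowtie, Picard and mm10 are named in the submitters' processing notes; their versions and settings, and how reads mapping to several places were treated, were not given in the sources used here. Per the file headers, the deposited coverage is a count of calls at 1 cytosine. The percent read as C and the percent read as T, also deposited, add up to 100 at each cytosine, and no cytosine has under 10 calls. Methylated calls are the count times the percent of C. In Control 5 and Control 8, 4 and 8 repeated entries were dropped. No column was left unmapped.

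The cytosines of both strands were summed over scaffolds, over 1000-bp tiles and, for 20% and 80% classes, by CpG. Group means were compared by exact permutation over 126 groupings and within-library differences by exact sign flips, two-sided. Tiles used a quasi-binomial model with dispersion moderated by the formulas of limma (version 3.58.1 was used for a logit alternative), tested on simulated data. Named scaffolds are the 8 with the most calls, the 3 highest and lowest in level and in calls per cytosine, and the 5 of smallest p; named tiles are the 5 of smallest p. Members, lists and tests were chosen with earlier results of these data known. Gene bounds come from a RefSeq table of GRCm38.p6 that names no scaffold, so Vamp7, Spry3, Tmlhe and Pisd-ps3 were assigned by general knowledge of the assembly, as were the chromosomes scaffolds are tied to. Scaffold sequences were not used here. Python 3.11.15, numpy 2.4.6 and scipy 1.17.1 were used.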

Additional observations from a re-analysis of the deposited data

Results flagged for a closer look

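In 62 groups of 4 or 5 libraries, 9 had 1 library far from the rest by Dixon's criterion at 95%. For normally distributed values this happens in about 1 group in 20. Percentages near 0 or 100 are not so distributed, so the 9 cannot be set against that rate. Control 8 read 75.4% on JH584304.1, where the other Control libraries read 73.8 to 74.3%. Control 5 read 72.4% on GL456350.1, where the others read 66.8 to 68.3%, and 15.0% at the Vamp7 edge at 39191, where the others read 0 to 3.23%. Among Susceptible libraries, number 6 read 80.1% on GL456211.1 (others 78.7 to 78.8%) and 67.2% on GL456381.1 (others 72.3 to 72.8%). Susceptible 2 read 60.6% on GL456216.1 (others 56.1 to 56.5%), and Susceptible 7 read 29.4% at the Spry3 edge at 110912 (others 1.96 to 3.52%). At the Vamp7 edge at 10737, Control 8 with 99.04% and Susceptible 3 with 96.8% differed from libraries that all read 100%. Of the 9, 4 were Control 5 or Control 8, the libraries whose strands differed most.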

How the results depend on the processing

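The lower level of scaffolds than autosomes within a library, a gap of -1.28 points, became -0.0281 at CpGs listed in all 9 libraries, -0.146 without cytosines of very high coverage and 0.17 without JH584304.1, none of which passed the threshold, and lay between -1.43 and -1.17 when each library was left out in turn. The scaffold group difference was less negative than the autosomal one by 0.257 points, and this reversed to -0.397 with equal weighting of CpGs and to -0.118 without JH584304.1, and ran from -0.0811 (without Susceptible 7) to 0.544 as each library was left out. The difference in calls per 1000 autosomal calls, -0.0639, passed the threshold as -0.0724 without cytosines of very high coverage and as -0.0419 without JH584304.1. With each library left out in turn it ran from -0.0812 to -0.0447, and it passed without Control 8 at -0.0782; with at least 20 calls it was -0.161 (exact permutation p = 0.278). The cause of these changes was not tested. The group difference in scaffold level, -0.34 points, missed the threshold and stayed negative under every alternative run, at -0.116 without Control 8, -0.181 without Susceptible 3, -0.129 with the replicate block and -0.716 without JH584304.1. The log2 ratio of calls per cytosine stayed past the threshold but went from 1.74 to 0.15 with medians. The count of 0 scaffolds past the threshold did not change, which says nothing of its stability where libraries were left out, since the smallest p with 3 against 4 is 0.0286 before adjustment.

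Numbers 2 and 3 are shared by both groups. Same-numbered libraries did not deviate together over tiles (correlations 0.0258 and -0.0171), and differently numbered pairs ran from -0.0953 to 0.132. These correlations cannot settle what a shared number stands for, and a shared batch was not tested. In the fit with a replicate block, 1 scaffold tile passed the threshold, GL456211.1 from 136001, and 502 of all tiles did, on 1 residual degree of freedom. Over the 2 pairs, 9 scaffolds were lower in both Susceptible libraries and 7 higher, against 20 lower by group means.

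Over the named scaffolds and tiles and the count of scaffolds lower in Susceptible libraries, 348 of 386 alternatives gave the same outcome. For the named scaffolds and tiles this means only the same sign, since none had an adjusted p under 0.05 in any run. Another 37 alternatives, all for scaffolds, reversed the sign. With equal weighting, differences became 0.111 (JH584304.1), -0.237 (GL456212.1), -0.0185 (GL456221.1), 0.238 (GL456216.1), 0.198 (JH584299.1), 0.00754 (GL456360.1), -0.644 (GL456354.1) and 0.899 (GL456381.1). At CpGs listed in all libraries they became 0.12 (GL456216.1), 0.198 (GL456378.1), 17.6 (GL456381.1), 4.39 (GL456394.1) and 15.0 (GL456390.1). Without cytosines of very high coverage they became 0.833 (JH584304.1), 0.14 (JH584299.1), 0.00781 (GL456360.1), -0.726 (GL456354.1) and 1.11 (GL456350.1). Without Control 5 and Control 8 together, a choice made after seeing the data, they became 0.142 (JH584304.1), 0.215 (GL456211.1), -0.314 (GL456212.1), 0.0743 (GL456239.1), 0.382 (GL456216.1) and 0.251 (GL456360.1). As each library was left out in turn, 6 of them took both signs: JH584304.1 from -0.261 to 0.152, GL456211.1 from -0.781 to 0.0225, GL456212.1 from -0.0256 to 0.417, GL456221.1 from -0.0322 to 0.661, GL456378.1 from -1.34 to 1.71 and GL456381.1 from -2.15 to 1.93. The 5 named tiles kept their direction under every alternative run. They were picked as the 5 of smallest p in these data, so this says little of their stability. With limma on logit levels the unadjusted p was 0.106 (JH584295.1), 0.418 (JH584304.1), 0.0228 (GL456210.1), 0.338 (GL456221.1 from 163001) and 0.0517 (GL456221.1 from 88001).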
